A study of Mus musculus with 4 samples.

Results

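The genes described here are 49 genes of the cell cycle and of DNA replication, chosen by name and found by matching the gene names of the deposited count table, which lists 56748 genes. They fall into 27 genes of mitosis and 22 genes of S phase and its entry, and all 49 had enough counts to be tested. The samples were whole small intestine (SI) of p53+/+ mice (labelled WT) and of p53-/- mice, collected at 1 day post 12 Gy total-body irradiation (TBI) from a Cs-137 source, with 2 libraries per genotype. All 4 libraries came from irradiated tissue, so a level before irradiation was not analysed here. The p53-/- mice lack p53 in every cell, the immune cells of the SI included, and the study describes its mice as age- and gender-matched young adults from a commercial supplier, without saying whether the genotypes were littermates. Polyadenylated RNA was sequenced, and the authors deposited reads counted per gene with no normalization. In the count table the p53+/+ libraries are numbered 7 and 8 and the p53-/- ones 9 and 10, and these numbers serve as names only. Nothing in the labels says that the libraries came from separate mice, so the tests measure the spread between these libraries, although the study states in general that its data points are biological replicates.

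In a dividing cell, cyclin D and cyclin E kinases release E2F transcription factors from the RB family, and E2F then turns on the genes that license origins, build the replication fork and supply nucleotides. A later program, driven by B-MYB, FOXM1 and the MuvB complex, turns on the genes that condense chromosomes, build the spindle and trigger anaphase. After DNA damage p53 induces p21, an inhibitor of cyclin-dependent kinases, which returns RB-family proteins and MuvB to these promoters as repressors. In the SI the dividing cells are mainly those of the crypts, with lymphocytes of the lamina propria and of lymphoid follicles as a further source of the same transcripts. At this dose and day the study reports many apoptotic crypt cells and far fewer Olfm4-positive stem cells in p53+/+ SI. In p53-/- SI it reports little apoptosis and Olfm4-positive cells that were largely kept. Whether the genotypes differed in the number of dividing cells or in RNA per cell was not tested here.

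Totals ranged from 15005479 to 22173164 counts per library. Trp53 was at 57.7 and 47.1 CPM (reads of a gene per fixed number of reads, after TMM scaling to a common library size) in p53+/+ SI and at 19.8 and 22.5 CPM in p53-/- SI, and which part of the gene is deleted is not given in the sources used here. Cdkn1a, which encodes p21, was at 619.8 and 639.9 CPM in p53+/+ SI and 221 and 246 CPM in p53-/- SI (log2 fold change -1.43 ± 0.202, edgeR adjusted p = 0.0592). The value after ± beside a log2 fold change is its standard error, and the adjusted p is that of the quasi-likelihood test in edgeR, corrected by Benjamini-Hochberg over 16094 genes. Where a pair of CPM values stands against another pair, they are those of libraries 7 and 8 against libraries 9 and 10. Within each genotype, 1 library stood apart. Library 10 (p53-/-) held 4.59% of its counts on the 18S ribosomal RNA gene Rn18s-rs5, against 0.296% to 0.863% in the others, and B cell markers summed to 572 CPM there against at most 27.5 CPM elsewhere. Library 8 (p53+/+) held 3672 CPM of smooth muscle markers against 395 to 855 CPM in the others. The results are therefore given with and without each of them.

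This control is known to act through short elements in the promoters, and 3 promoters of each group are shown because the elements occurred at different frequencies in the groups. The elements searched on both strands were the cell cycle genes homology region (CHR, TTTGAA), to which MuvB binds, the E2F site (TTTGGCGC, TTTCCCGC, TTTCGCGC or TTTGCCGC) and the CCAAT box (CCAAT), to which NF-Y binds. RefSeq promoter windows on GRCm38.p6, which run from 250 bases before to 50 bases after a transcription start, matched 40 of the 49 genes by symbol. A CHR was found in 15 of 21 mitosis genes with a window (71.4%) and in 4 of 19 S phase genes (21.1%), against 20.2% of all 27025 genes with a window. Those 27025 genes, not limited to the genes tested here, are what all genes means for the promoters. An E2F site was found in 8 of 19 S phase genes (42.1%) and in 1 of 21 mitosis genes (4.76%), against 2.60% of all genes. A CCAAT box was found in 18 of 21 mitosis genes (85.7%) and 12 of 19 S phase genes (63.2%), against 41.1% of all genes. In the bases before the start alone, which the printed stretches show, a CHR was found in 8 of 21 mitosis genes (38.1%), 21.1% of S phase genes and 18.3% of all genes, and an E2F site in 5 of 19 S phase genes (26.3%), 4.76% of mitosis genes and 2.16% of all genes. The shares with a CCAAT box there were 85.7% (mitosis), 63.2% (S phase) and 37.5% (all genes). These are matches of letters in a fixed window, not measured binding sites. The stretches printed end at the base before the start, 5′ to 3′ on the gene's own strand. Of the mitosis genes they are the 3 with the smallest unadjusted p between genotypes that hold a CHR before the start, and capitals mark the CHR (TTCAAA where it lies on the other strand).
Mki67 (chr7:135716380-135716509, minus strand): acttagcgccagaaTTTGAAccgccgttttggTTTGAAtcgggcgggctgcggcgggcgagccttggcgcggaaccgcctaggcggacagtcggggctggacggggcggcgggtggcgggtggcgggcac
Prc1 (chr7:80294376-80294475, plus strand): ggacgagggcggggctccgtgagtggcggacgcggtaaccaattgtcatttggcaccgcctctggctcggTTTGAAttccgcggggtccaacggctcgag
Top2a (chr11:99024190-99024379, minus strand): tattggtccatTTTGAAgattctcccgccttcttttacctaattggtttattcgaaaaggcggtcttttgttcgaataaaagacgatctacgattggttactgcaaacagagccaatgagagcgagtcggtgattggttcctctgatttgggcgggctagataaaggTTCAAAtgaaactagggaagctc
Of the S phase genes they are the 3 with the smallest unadjusted p that hold an E2F site before the start, and capitals mark the E2F site, with matches on the 2 strands running into each other in Mcm5 and at the first place in Mcm6.
Mcm5 (chr8:75109339-75109508, plus strand): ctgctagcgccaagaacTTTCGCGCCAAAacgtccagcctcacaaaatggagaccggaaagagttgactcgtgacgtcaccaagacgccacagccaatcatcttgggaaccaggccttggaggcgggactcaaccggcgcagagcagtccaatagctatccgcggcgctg
Pola1 (chrX:93632156-93632305, minus strand): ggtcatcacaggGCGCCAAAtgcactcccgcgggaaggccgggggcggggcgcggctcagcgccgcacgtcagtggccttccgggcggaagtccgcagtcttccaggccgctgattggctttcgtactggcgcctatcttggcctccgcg
Mcm6 (chr1:128359706-128359825, minus strand): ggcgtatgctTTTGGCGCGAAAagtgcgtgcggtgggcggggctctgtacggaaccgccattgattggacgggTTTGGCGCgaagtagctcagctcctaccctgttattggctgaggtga

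**Figure D1:**
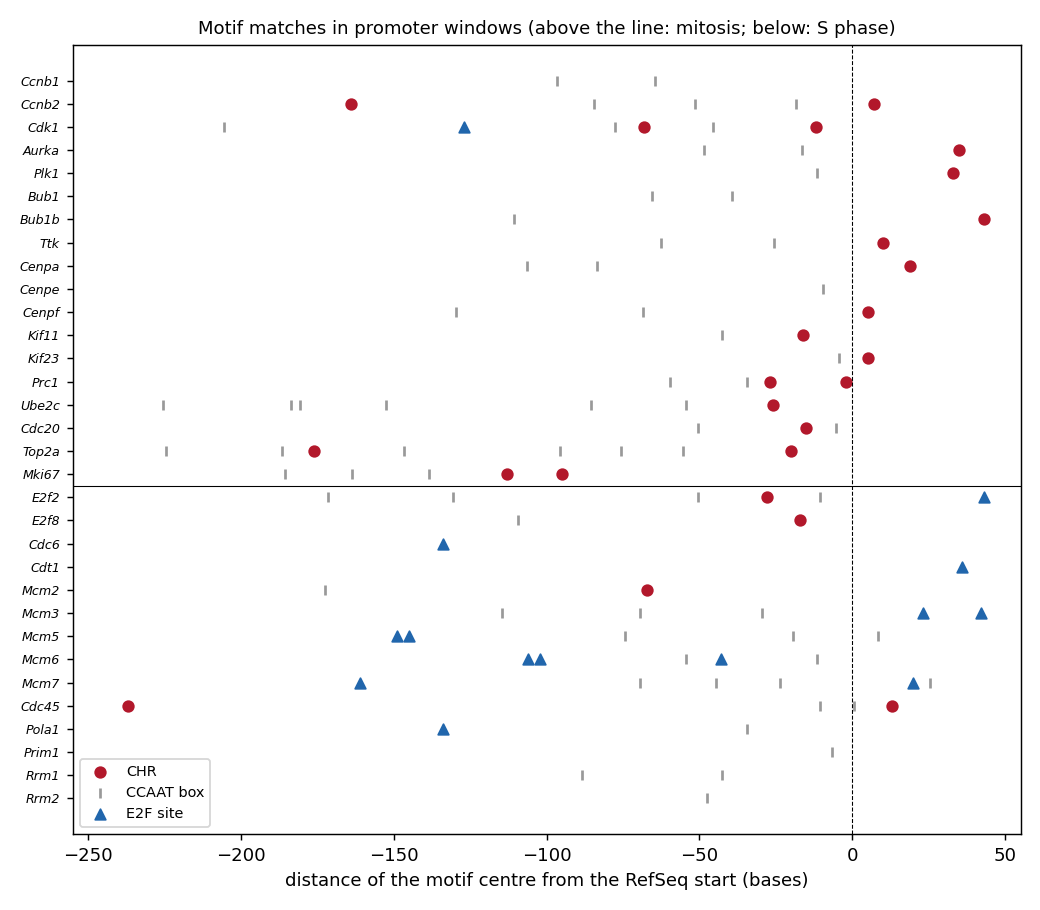
Position of each CHR, E2F site and CCAAT box in the promoter windows of the 32 genes with a match (genes with more than 1 window have them in 1 row), as the distance in bases of the match's centre from the RefSeq start (dashed line). CHR matches lie mostly among the mitosis genes, above the solid line, and E2F sites mostly among the S phase genes, below it.

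To ask whether cycling genes differed between the genotypes at 1 day post-TBI, the 49 genes were compared in the fit over all genes. Every one of the 27 mitosis genes was higher in both p53-/- libraries than in both p53+/+ libraries, with a median log2 fold change of 1.33 (2.51-fold). Of the 22 S phase genes, 18 were higher in this way, 1 (Ccne2) was lower and 3 (Ccne1, Gins2 and Rrm2) overlapped, with a median log2 fold change of 0.76 (1.69-fold). Over all 16094 genes tested, 26.4% lay higher in both p53-/- libraries and 24.4% lower, and the median log2 fold change was -0.01. None of the 49 genes passed the threshold of an adjusted p under 0.05 from edgeR's quasi-likelihood test, which 0.298% of all genes passed as higher and 0.193% as lower. At an unadjusted p under 0.05, 27 of the 27 mitosis genes and 8 of the 22 S phase genes were higher and none was lower, against 10.05% of all genes higher and 7.92% lower. The lowest adjusted p among the 49 was 0.0602, that of Kif23.

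The outcome of the test one gene at a time depended on the tool. DESeq2 called 23 mitosis and 4 S phase genes higher (27 of 49), against 5.05% of all genes, and edgeR's likelihood ratio test called 22 and 4 (26 of 49), against 5.18%. With no filter on low counts the quasi-likelihood test called 25 and 12 (37 of 49), against 5.15%. The 4 S phase genes called by DESeq2 were E2f2, E2f8, Mybl2 and Cdc45. No gene of the 49 was called lower by any of these.

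**Figure D2:**
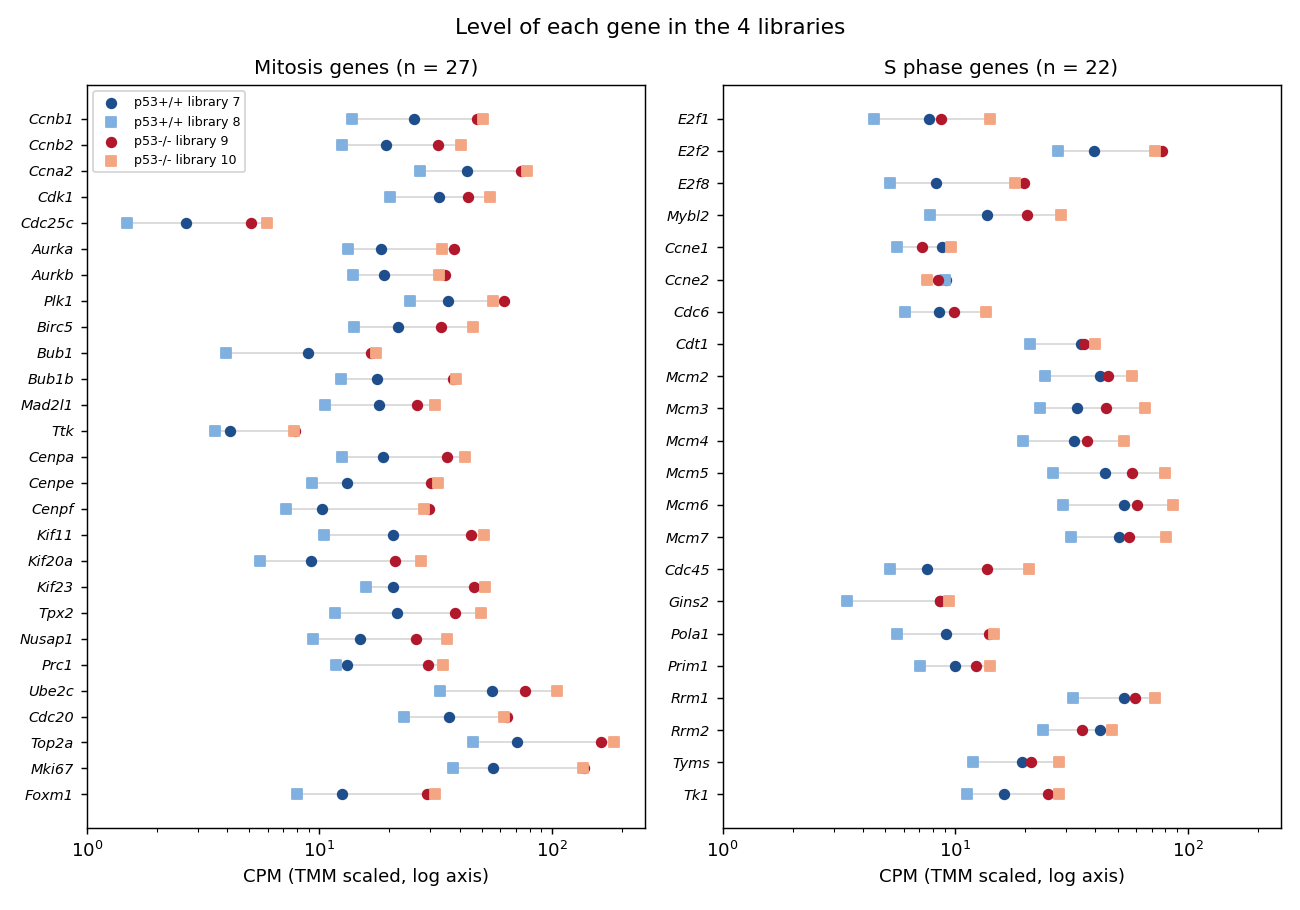
Level of each of the 49 genes in the 4 libraries, as TMM-scaled CPM on a log axis, 1 point a library. For all 27 mitosis genes the 2 p53-/- points lie to the right of both p53+/+ points, while for Ccne1, Gins2 and Rrm2 they overlap and for Ccne2 they lie to the left.

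Among the cyclins and the kinase of mitotic entry, Ccnb1 (ENSMUSG00000041431), the cyclin that activates CDK1 at the onset of mitosis, was at 25.4 and 13.8 CPM in p53+/+ SI and at 47.5 and 50.4 CPM in p53-/- SI. Its log2 fold change was 1.32 (standard error 0.311, edgeR adjusted p = 0.134). The p53-/- values were close to each other, and the p53+/+ values were not, with library 8 the lower. Ccnb2, the Golgi-associated B-type cyclin, was at 19.4 and 12.5 CPM against 32.3 and 40.4 CPM. Ccna2, the cyclin of S phase and G2, was at 43.01 and 27.2 CPM against 73.5 and 77.7 CPM. Cdk1, the mitotic kinase itself, had the smallest difference of the 27 mitosis genes, with 32.5 and 20.05 CPM against 43.4 and 53.8 CPM, a log2 fold change of 0.89 (standard error 0.276). Cdc25c, the phosphatase that activates CDK1, had the fewest counts, with 43 and 23 counts in p53+/+ SI and 116 and 120 in p53-/- SI.

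The kinases that drive mitosis and the chromosomal passenger survivin had a median log2 fold change of 1.08, against 1.19 for the cyclins and CDK1 control. Aurka, the centrosomal Aurora kinase, was at 18.3 and 13.3 CPM in p53+/+ SI and at 37.96 and 33.5 CPM in p53-/- SI. Aurkb, the Aurora kinase of the passenger complex, was at 18.9 and 13.9 CPM against 34.6 and 32.5 CPM, and Birc5, which encodes survivin of the same complex, at 21.8 and 14.1 CPM against 33.4 and 45.6 CPM. Library 9 was above library 10 for Aurka, Aurkb and Plk1 and below it for Birc5. Plk1, the Polo kinase, was at 35.8 and 24.4 CPM against 61.9 and 55.6 CPM (log2 fold change 0.96 ± 0.226, edgeR adjusted p = 0.134).

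Genes of the spindle assembly checkpoint, which delays anaphase until chromosomes are attached, had log2 fold changes of 1.00 to 1.40. Bub1b, which encodes the checkpoint protein BUBR1, was at 17.6 and 12.4 CPM against 37.3 and 38.8 CPM (log2 fold change 1.34 ± 0.236, edgeR adjusted p = 0.0913). Bub1, its kinase partner, was at 8.97 and 3.96 CPM against 16.7 and 17.6 CPM, and here the p53+/+ libraries differed from each other by 2.27-fold. Mad2l1, the inhibitor of the anaphase-promoting complex, was at 18.1 and 10.6 CPM against 26.2 and 31.3 CPM, and Ttk, the MPS1 kinase, at 4.15 and 3.57 CPM against 7.89 and 7.76 CPM.

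The mitosis roles with the largest medians were the centromere and kinetochore (1.48), the spindle and midzone (1.41), and chromosome structure and Foxm1 (both 1.56). Cenpf, a kinetochore protein made in G2, was at 10.2 and 7.20 CPM in p53+/+ SI and 29.5 and 28.3 CPM in p53-/- SI (log2 fold change 1.73 ± 0.262, the largest of the 49, edgeR adjusted p = 0.0669). Cenpe, the kinetochore motor, was at 13.2 and 9.28 CPM against 30.1 and 32.5 CPM, and Cenpa, the histone variant that marks centromeres, at 18.8 and 12.5 CPM against 35.5 and 42.1 CPM. In each of these 3 genes the lower p53-/- library was at least 1.88 times the higher p53+/+ library. Kif11, the motor that separates spindle poles, was at 20.6 and 10.4 CPM against 44.9 and 50.99 CPM. Kif23, a motor of the central spindle, was at 20.7 and 15.8 CPM against 46.3 and 51.7 CPM (log2 fold change 1.42 ± 0.205, edgeR adjusted p = 0.0602). Prc1, the bundler of midzone microtubules, was at 13.2 and 11.7 CPM against 29.4 and 34.1 CPM, with p53+/+ libraries that lay close together. Kif20a, a motor of the midzone, was at 9.16 and 5.58 CPM against 21.1 and 27.4 CPM, but 29.3% of its exons overlap those of Cdc23 on the other strand, and the strand setting of the counting is not given in the sources used here. Tpx2, which activates Aurora A on the spindle, and Nusap1, a microtubule-binding protein, had log2 fold changes of 1.40 and 1.33.

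Top2a (ENSMUSG00000020914), the topoisomerase that untangles chromosomes, was at 70.7 and 45.5 CPM in p53+/+ SI and at 162 and 184 CPM in p53-/- SI (log2 fold change 1.57 ± 0.257, edgeR adjusted p = 0.0802). Mki67 (ENSMUSG00000031004), which encodes the proliferation marker Ki-67 on the surface of mitotic chromosomes, was at 55.9 and 37.4 CPM against 138 and 136 CPM (log2 fold change 1.55 ± 0.233, edgeR adjusted p = 0.0646). The 2 p53-/- libraries differed by 1.07% of their mean for Mki67, while the 2 p53+/+ libraries lay 1.49-fold apart. Both genes carry a CHR in the stretches printed above. Foxm1, a transcription factor of the mitotic program, was at 12.5 and 7.98 CPM against 28.9 and 31.4 CPM. Of the anaphase-promoting complex, the activator Cdc20 was at 36.02 and 23.2 CPM against 63.9 and 62.03 CPM, and the ubiquitin-conjugating enzyme Ube2c at 55.2 and 32.96 CPM against 76.3 and 105 CPM. Of the exons of Ube2c, 22.8% overlap those of Tnnc2 on the other strand.

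Levels of different genes were compared per length, as CPM per kb of merged exons in GENCODE M21, which gave a length for all 49. In the p53+/+ SI the order was led by Ube2c (16.95), Cdc20 (15.8), Plk1 (13.7) and Rrm2 (11.9) and ended with Cenpf (0.564) and Cdc25c (0.422). In the p53-/- SI Ube2c (34.9), Cdc20 (33.7) and Plk1 (26.7) led again, while Rrm2 stood at 14.8, below Top2a at 19.2. Neighbours in this order were not tested against each other.

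Among the S phase roles, the transcription factors had the largest median log2 fold change, 1.17. E2f8, an atypical E2F that represses E2F targets late in S phase, was at 8.29 and 5.26 CPM in p53+/+ SI and at 19.7 and 18.01 CPM in p53-/- SI (log2 fold change 1.48 ± 0.323, edgeR adjusted p = 0.119). E2f2, an activator E2F, was at 39.5 and 27.6 CPM against 77.1 and 72.1 CPM (log2 fold change 1.15 ± 0.214, edgeR adjusted p = 0.0998). Both p53-/- libraries lay well above both p53+/+ libraries for these genes, and library 9 was the higher of them. E2f1, the best known activator E2F, had p53-/- libraries that lay apart, at 7.74 and 4.48 CPM against 8.72 and 14.1 CPM. Mybl2, which encodes B-MYB, was at 13.7 and 7.79 CPM against 20.3 and 28.6 CPM.

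Cyclin E genes, which act with CDK2 at the entry into S phase, did not show the pattern. Ccne1 was at 8.79 and 5.64 CPM in p53+/+ SI and 7.19 and 9.55 CPM in p53-/- SI, a log2 fold change of 0.21 with a standard error of 0.380. Ccne2 was at 9.10 and 9.08 CPM against 8.42 and 7.56 CPM, a log2 fold change of -0.19 with a standard error of 0.296. For both genes the standard error exceeded the difference, and 17.4% of the exons of Ccne2 overlap those of Ints8 on the other strand. Of the licensing factors that load the replicative helicase, Cdc6 was at 8.54 and 6.10 CPM against 9.86 and 13.5 CPM, and Cdt1 at 34.8 and 20.9 CPM against 35.9 and 40.04 CPM. Library 9 lay only just above library 7 for Cdt1.

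The MCM genes, which encode the ring of the replicative helicase, had log2 fold changes within a narrow range, from 0.64 (Mcm2) to 0.96 (Mcm3). Mcm6 was at 53.04 and 29.2 CPM in p53+/+ SI and 60.4 and 86.4 CPM in p53-/- SI (log2 fold change 0.83 ± 0.334, edgeR adjusted p = 0.279). Mcm5 was at 44.1 and 26.4 CPM against 57.6 and 79.3 CPM, and Mcm3 at 33.2 and 23.03 CPM against 44.5 and 65.2 CPM. In all 6 MCM genes library 10 was the highest library and library 8 the lowest, with libraries 7 and 9 between them. Summed over the 6, the levels were 255 and 154 CPM in p53+/+ SI and 301 and 421 CPM in p53-/- SI. Mcm2, Mcm4 and Mcm7 had log2 fold changes of 0.64, 0.79 and 0.73.

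At the fork, Cdc45, the helicase cofactor that fires an origin, had the largest difference of its group, with 7.55 and 5.26 CPM against 13.6 and 20.8 CPM (log2 fold change 1.42 ± 0.359, edgeR adjusted p = 0.146). Pola1, the catalytic subunit of polymerase alpha, was at 9.16 and 5.64 CPM against 13.9 and 14.7 CPM, and its partner Prim1, the primase, at 9.96 and 7.07 CPM against 12.3 and 14.2 CPM. Gins2, a further helicase cofactor, was at 8.60 and 3.44 CPM against 8.59 and 9.40 CPM, with p53+/+ libraries further apart than any of these, and 67.3% of its exons overlap those of Gse1 on the other strand. Genes of nucleotide supply had a median log2 fold change of 0.64. Rrm2, the regulated subunit of ribonucleotide reductase, was at 41.9 and 23.8 CPM against 35.1 and 47.1 CPM, so that library 7 lay above library 9. Its large subunit Rrm1 was at 52.97 and 32.1 CPM against 59.04 and 72.1 CPM, and Tyms, thymidylate synthase, at 19.3 and 11.9 CPM against 21.2 and 27.8 CPM. Tk1, the salvage kinase for thymidine, differed more, at 16.2 and 11.3 CPM against 25.1 and 27.9 CPM (log2 fold change 0.95, standard error 0.258).

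**Figure D3:**
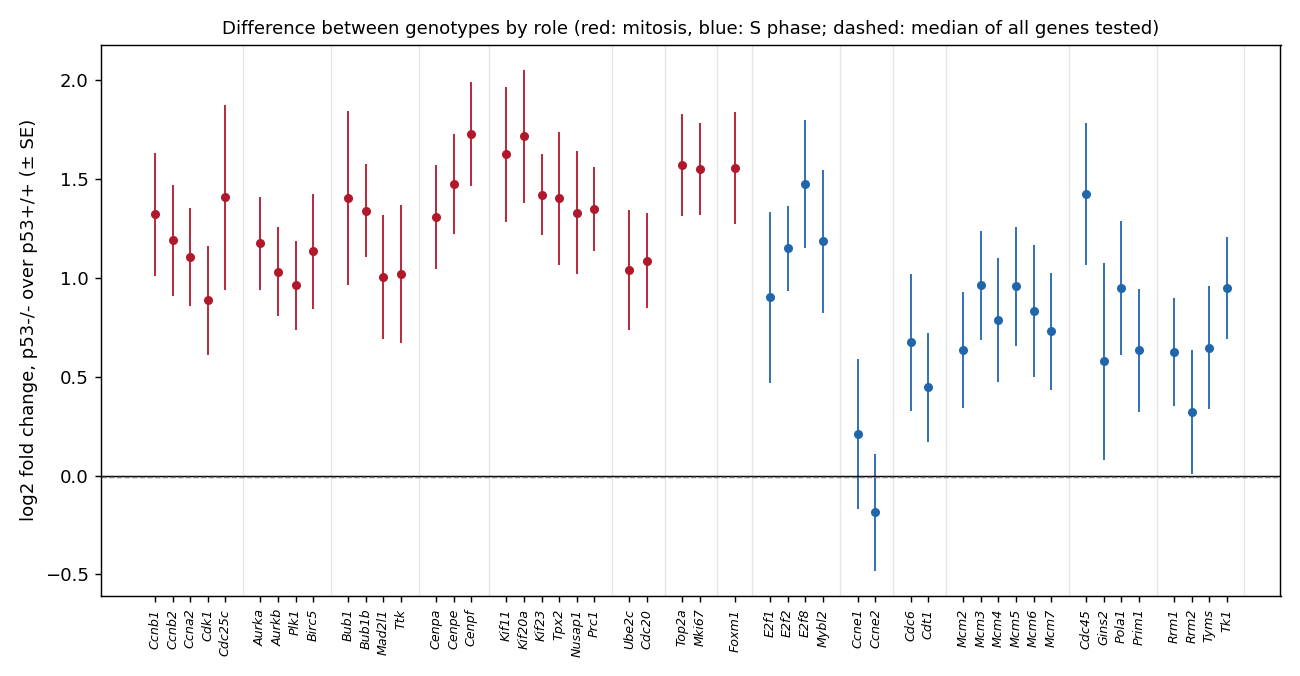
Log2 fold change of each gene between p53-/- and p53+/+ SI (2 libraries each) with its standard error from edgeR, ordered by role, mitosis genes in red and S phase genes in blue. The mitosis genes lie between 0.89 and 1.73, the S phase genes between -0.19 and 1.48, with the cyclin E genes nearest the median of all genes tested (dashed, at -0.01).

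The mitosis and S phase genes were also set against each other inside each library, where neither the scaling of the libraries nor their depth enters. Summed over the genes, mitosis was 1.16 and 1.21 times S phase in p53+/+ SI and 1.81 and 1.58 times in p53-/- SI. The p53+/+ libraries lay close together on this ratio although their levels differed, and both p53-/- libraries lay above them, with library 9 the higher. With the MCM genes alone as the S phase measure, the ratios were 2.51 and 2.68 against 4.08 and 3.23. With 2 libraries per genotype these ratios were not tested. The quartiles of the log2 fold changes were 1.10 and 1.45 for the mitosis genes and 0.63 and 0.96 for the S phase genes.

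**Figure D4:**
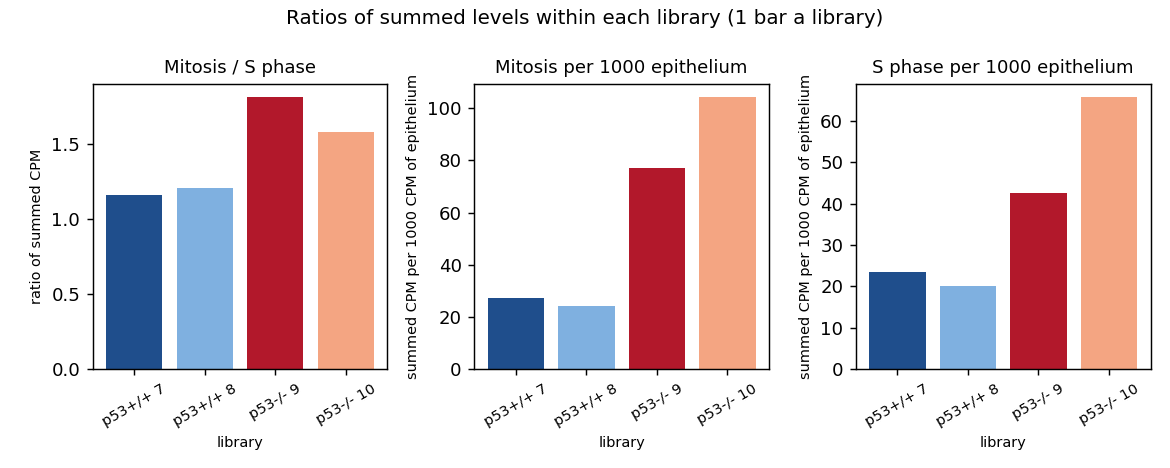
Ratios of summed CPM within each library, 1 bar a library: mitosis genes over S phase genes, and each group per 1000 CPM of epithelium markers. Mitosis over S phase is 1.16 and 1.21 in p53+/+ SI and 1.81 and 1.58 in p53-/- SI, and both groups stand higher per epithelium in p53-/- SI.

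The libraries of one genotype were not alike. All 49 genes were lower in p53+/+ library 8 than in p53+/+ library 7, by a median of 0.62 (mitosis) and 0.67 (S phase) on the log2 scale, while 55.1% of all genes tested were lower there. Smooth muscle markers moved the other way, with 5 of 5 higher in library 8 (summed, 3672 against 395 CPM), and the 9 epithelium markers summed to 17033 against 23574 CPM. In a bulk sample, fewer cells of a type and less RNA per cell cannot be told apart. Per 1000 CPM of epithelium markers, the mitosis genes were at 27.1 and 24.2 CPM in p53+/+ SI and at 77.3 and 104 CPM in p53-/- SI. The S phase genes were at 23.4 and 20.04 CPM and at 42.6 and 65.8 CPM on the same scale. On this measure the p53+/+ libraries were nearer to each other than in CPM, and the p53-/- libraries were relatively further apart. In CPM the p53-/- libraries summed to 1227 and 1361 for the mitosis genes and to 677 and 859 for the S phase genes. The epithelium markers themselves were lower in p53-/- SI (15880.4 and 13060.3 CPM summed), so the contrast per epithelium is wider than in CPM. Set against the summed crypt stem cell markers described below, the genotypes overlapped. The mitosis genes were 1.273 and 0.957 times these markers in p53+/+ SI and 1.268 and 1.485 times in p53-/- SI. The S phase genes were 1.098 and 0.793 times them in p53+/+ SI and 0.699 and 0.937 times in p53-/- SI. Both ratios lean on Olfm4, which held 47.6 and 15.96 of the 502 and 430.4 CPM of these markers in p53+/+ SI. In p53-/- SI it held 473 and 525 of their 968 and 916 CPM. Ratios to the stem cell markers without Olfm4 were not taken, so the overlap may not hold for the other markers.

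Of the lymphocyte markers, 0 of the 9 B cell, 3 germinal centre B cell and 12 T cell markers tested passed the threshold of edgeR's quasi-likelihood test. Of all genes tested, 0.298% passed it as higher and 0.193% as lower. At an unadjusted p under 0.05, 9, 0 and 12 of these markers were higher in p53-/- SI, against 10.05% of all genes. Among the 10 B cell markers, Fcer2a, Pax5 and Blk had 0 counts in both p53+/+ libraries, and the list summed to 2.35 and 3.83 CPM there, to 27.5 CPM in library 9 and to 572 CPM in library 10. The 6 germinal centre B cell markers summed to 25.1, 27.3, 27.9 and 77.2 CPM in the order of the library numbers. The comparison was repeated without library 10, where the B cell lists were highest. Library 9, which remains, also stood above both p53+/+ libraries for the B cell list (27.5 CPM) and the T cell list (80.7 CPM). The part of lymphocytes in the contrast was therefore not tested. Without library 10, the median log2 fold change was 1.29 for the mitosis genes and 0.58 for the S phase genes. Library 9 alone lay above both p53+/+ libraries for 27 of 27 mitosis and 18 of 22 S phase genes, against 34.4% of all genes, and library 10 for 27 and 21, against 37.95%. Within the p53-/- SI, library 10 lay above library 9 by a median of 0.16 (mitosis) and 0.39 (S phase) on the log2 scale. The matching median over all genes was not taken, so this is not a result about the cycling genes.

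The 12 T cell markers summed to 7.80 and 16.4 CPM in p53+/+ SI and to 80.7 and 164 CPM in p53-/- SI, with Cd8b1 at 0 counts in both p53+/+ libraries. The 5 plasma cell markers summed to 49.9 and 187 CPM and to 1089 and 1472 CPM, mostly Jchain. Of these, Derl3, an endoplasmic reticulum gene of secretory cells, rose from 1.49 and 1.62 CPM to 13.8 and 14.8 CPM (log2 fold change 3.19, edgeR adjusted p = 0.0424). The part of these lists in the levels of the cycling genes was not tested. Of crypt markers, the 10 stem cell genes summed to 502 and 430.4 CPM and to 968 and 916 CPM, a difference that was mostly Olfm4 (47.6 and 15.96 CPM against 473 and 525 CPM), while the median log2 fold change of the 10 was 0.12. The 6 Paneth cell markers had a median of 0.60 and the 10 enterocyte markers a median of -0.62. Of either list 0 passed the threshold, against 0.298% of all genes as higher and 0.193% as lower. Of the 6 macrophage markers, 3 were higher in both p53-/- libraries and 3 overlapped, against 26.4% of all genes higher and 24.4% lower. Their median was 0.87, and their sums were 106 and 201 CPM against 170.5 and 154 CPM. The 5 red blood cell markers summed to at most 5.97 CPM.

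**Figure D5:**
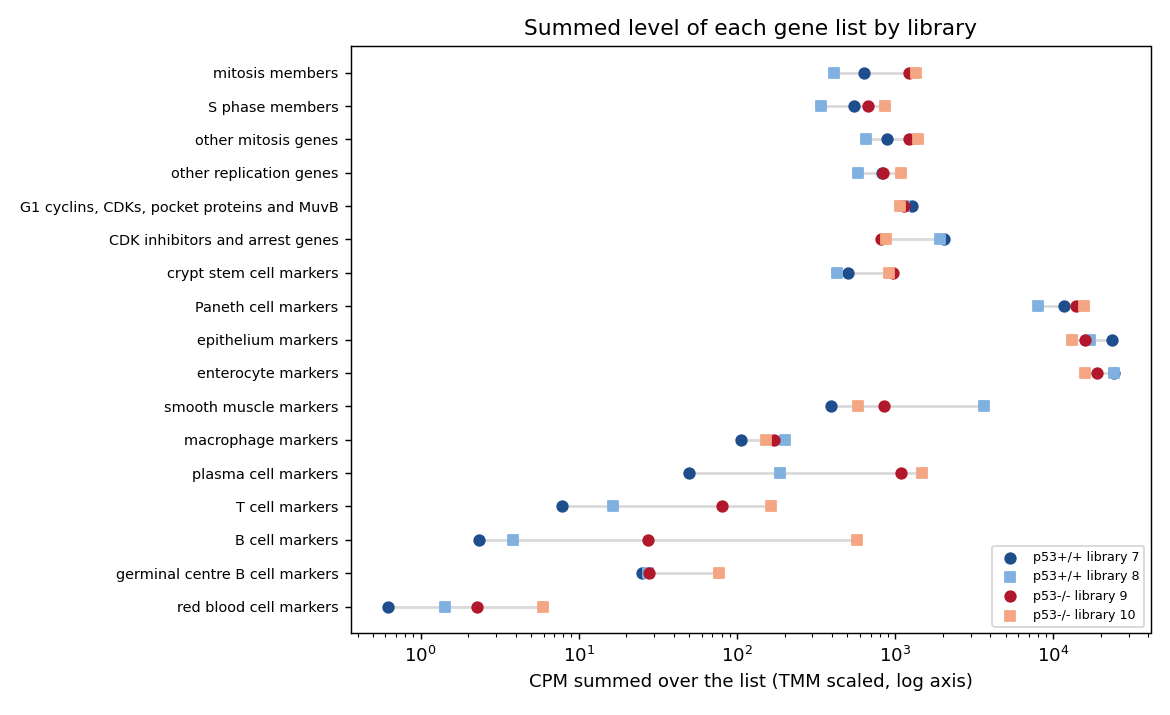
CPM summed over each gene list in each library, on a log axis, 1 point a library. The mitosis and S phase genes are higher in libraries 9 and 10 than in 7 and 8, while the genotypes overlap for the list of G1 cyclins. The B cell list reaches 572 CPM in library 10 alone, and the smooth muscle list reaches 3672 CPM in library 8 alone.

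Further genes of the pathway, which were not among the 49, are given as counts. They stand beside shares of all genes tested of 26.4% higher in both p53-/- libraries and 24.4% lower, 10.05% higher and 7.92% lower at an unadjusted p under 0.05, and 0.298% called higher and 0.193% called lower. Of 44 other mitosis genes (condensins, kinetochore, kinesins and cytokinesis), 37 were higher in both p53-/- libraries and 0 lower, 32 had an unadjusted p under 0.05 as higher, and 0 passed the threshold of edgeR's quasi-likelihood test, with a median log2 fold change of 1.12. Kif20b, a kinesin of cytokinesis, was at 6.31 and 4.35 CPM against 24.2 and 20.4 CPM, and Smc4, a condensin subunit, at 35.8 and 34.8 CPM against 67.6 and 67.8 CPM. Of 42 other replication genes, 24 were higher in both p53-/- libraries and 0 lower, 9 had an unadjusted p under 0.05 as higher, and 0 passed the threshold, with a median of 0.59. Mcm10, which helps to start the fork, was at 20.1 and 16.5 CPM against 37.6 and 36.01 CPM, and Pole, the leading-strand polymerase, at 5.38 and 5.77 CPM against 12.1 and 16.1 CPM. As in the 49, the median was larger for mitosis genes than for replication genes.

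Of 22 genes of G1 cyclins and kinases, RB family, E2F and MuvB, 6 were higher in both p53-/- libraries, 4 lower and 12 overlapped, 2 and 3 had an unadjusted p under 0.05 as higher and lower, and 0 passed the threshold, with a median log2 fold change of 0.14. The shares of this list that were higher and lower in both p53-/- libraries are near those of all genes. Lin9, a MuvB subunit, was at 4.77 and 3.76 CPM against 9.16 and 12.2 CPM, and Rb1, the retinoblastoma gene, at 90.5 and 76.5 CPM against 61.2 and 52.1 CPM. Of 13 genes of CDK inhibitors and arrest, 1 passed the threshold. This was Ccng1, a p53 target that encodes cyclin G1, which fell from 463 ± 26.9 to 46.3 ± 3.84 CPM (n = 2 each, ± SD, with a log2 fold change of -3.32 and an edgeR adjusted p of 0.0150). Cdkn2b, which encodes the CDK4 and CDK6 inhibitor p15, was at 283 and 274 CPM against 140.1 and 127 CPM, while Cdkn1b, which encodes p27, was at 50.1 and 52.2 CPM against 52.6 and 56.6 CPM. Over the list, 3 genes were higher in both p53-/- libraries, 6 lower and 4 overlapped, and 1 and 4 had an unadjusted p under 0.05 as higher and lower. Its median log2 fold change was -0.02, with -0.31 without library 10 and -0.004 without library 9. Summed, it was at 2046 and 1926 CPM against 818 and 874 CPM.

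The size of the contrast depended on the p53+/+ library used. Without library 7, which leaves library 8 as the only p53+/+ sample, the medians were 1.64 (mitosis) and 1.22 (S phase) and 29 of 49 genes were called higher, against 1.87% of all genes. Without library 8 they were 1.02 and 0.45 and 11 were called, against 3.98%. Without library 9 the medians were 1.42 (mitosis) and 0.97 (S phase), and without library 10 they were 1.29 and 0.58. In both of these fits edgeR's quasi-likelihood test called 0 of the 49, and without library 10 it called 0 of all genes tested. In each of these fits the lone library of a genotype is assumed to vary like those of the other.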

How the data were processed

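Poly-A RNA was sequenced from irradiated SI, 2 libraries for each genotype (12 Gy TBI, 1 day). The values the authors deposited are unnormalized read counts for each gene, and the submitters' processing notes name fastp, HISAT2 2.0.5, featureCounts 1.5.0-p3 and DESeq2 1.20.0. The genome build, annotation and strand setting are not given in the sources used here, so reads of overlapping genes and near-identical copies may be shared or dropped. Genotypes came from the names of the columns, which do not tie to the replicate numbers of the labels.

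Counts were scaled by TMM and filtered by filterByExpr in edgeR 4.0.16 (R 4.3.3), which left 16094 genes, and tested for a genotype difference in either direction by quasi-likelihood, with p-values corrected over all of them by Benjamini-Hochberg (threshold 0.05). Standard errors are the log2 fold change divided by the square root of the F statistic. The scripts were tested on simulated data. With 2 libraries per genotype, intervals are wide, and totals of 15005479 to 22173164 counts give at least 23 counts for each of the 49 genes in every library. Within a genotype the libraries were further apart than sampling noise allows (chi-square per degree of freedom 48.0 and 69.5) and were kept apart. Lists are described by counts and medians without a list test. The 49 genes and all lists were chosen with earlier results of these data known.

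Named genes are the 49, the 2 genes with the smallest unadjusted p in each further pathway list and any past the threshold, and markers at 0 in a genotype or most abundant. Some markers are not reported here. Cdkn1b and Olfm4 were named after their values were seen. Exon lengths and overlaps came from GENCODE M21 by gene identifier, and promoter windows from RefSeq (GRCm38.p6) by symbol. The alternatives were RLE or upper-quartile factors, library size only, DESeq2 1.42.0, the likelihood ratio test, a minimum of 10 counts in every library, no filter, receptor segments or the 50 most abundant genes left out, and each library left out.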

Additional observations from a re-analysis of the deposited data

How the results depend on the processing

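The number of the 49 genes called higher was 0 with the quasi-likelihood test and moved to 27 with DESeq2, 26 with the likelihood ratio test and 37 with no filter on low counts, and the cause was not tested. With each library left out in turn it ranged from 0 to 29, where fewer libraries set the spread. It stayed at 0 with RLE or upper-quartile factors, with library size only, at least 10 counts in every library, and with receptor segments or the 50 most abundant genes left out, and no alternative called a gene of the 49 lower. Over all genes, 48 higher and 31 lower became 813 and 563 with DESeq2, 833 and 462 with the likelihood ratio test, 1433 and 761 with no filter, 26 and 20 with library size only, 29 and 20 with upper-quartile factors, and 24 and 18 with at least 10 counts in every library. With a library left out they ranged from 0 (without library 10) to 680 (without library 8) higher and from 0 to 344 lower. The median log2 fold change ranged from 1.02 to 1.64 for mitosis genes and from 0.45 to 1.22 for S phase genes with each library left out. Of 637 values of single genes under the alternatives, 505 kept their direction and side of the threshold, 130 passed it and 2 changed sign, both without p53+/+ library 8. These were Ccne1 (log2 fold change -0.078, and at most 0.57 with another library left out) and Rrm2 (-0.035, and at most 0.79). No paired analysis was possible because the columns of the count table carry library numbers that cannot be tied to the replicate numbers of the labels.

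Each of the 49 genes had at least 23 counts in every library, and the spread behind every test was estimated from 2 libraries per genotype. Changing the scaling factors alone moved the median log2 fold change of all genes by less than 0.1.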

Other observations

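A few values stood out after the results were seen and are given without explanation. Top2a, a gene of late S phase and mitosis, was 1.69 and 1.91 times Rrm2 in CPM in p53+/+ SI and 4.61 and 3.90 times in p53-/- SI. Mki67 was 1.05 and 1.28 times Mcm6 in p53+/+ SI and 2.28 and 1.58 times in p53-/- SI. Both ratios are taken within a library, and library 9 was the highest in each. Mybl1, which encodes the A-MYB factor found in germinal centre B cells, was at 3.65 and 2.21 CPM in p53+/+ SI and at 1.67 and 9.003 CPM in libraries 9 and 10, so that it was the lowest of the 4 in library 9 and the highest in library 10.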
